A study of Mus musculus with 12 samples.

Results

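The 10 genes described here encode transcription factors that specify and maintain the cell lineages of the lung: *Nkx2-1*, *Foxa1*, *Foxa2*, *Foxf1*, *Sox2*, *Sox9*, *Gata6*, *Tbx2*, *Tbx4* and *Tbx5*. They were taken by gene symbol from the 55487 genes of the count table, and all 10 were found and passed the low-count filter. NKX2-1, FOXA1, FOXA2 and GATA6 act in the lung epithelium, where they bind regulatory regions of surfactant and secretory protein genes. SOX2 marks the proximal airway epithelium and SOX9 the distal tips of the branching lung, while FOXF1 and the T-box factors TBX2, TBX4 and TBX5 belong to the mesenchyme, FOXF1 also to the capillary endothelium. In the developing lung the mesenchymal factors maintain growth factor signals to the epithelium.

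RNA was sequenced from the whole lungs of 12 C57BL/6J mice, all *miR-30a* -/-, on postnatal day (PND) 21. The 4 groups of 3 lungs were room air females, hyperoxia females, room air males and hyperoxia males, and hyperoxia was 95% FiO2 from PND 1 to PND 5. Both the hyperoxia lungs and their room air controls therefore carry the deletion, and wild-type lungs were not analysed here. Litters were mixed before pups were assigned to an exposure, and the titles give each lung an animal number of its own. Lungs are named here by the short number that follows the sex letter in the title, which recurs between groups and does not mark the same animal. Libraries held 8763033 to 16741694 counts on genes. *Mir30a* had 0 counts in all 12 lungs, a check of limited use because these libraries do not target small RNA. *Xist* and *Ddx3y* counts fitted the labelled sex in every lung. Levels are CPM, counts scaled to a library of 1000000 counts, after upper quartile normalization. A gene was called changed at an adjusted p under 0.05 with a fold over 1.5 in edgeR's quasi-likelihood test over 45828 genes. In whole lung, fewer cells of a type and less RNA per cell cannot be told apart.

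Promoters from RefSeq (GRCm38.p6), covering 250 bases before to 50 bases after a transcript start, were found for 5 of the 10 genes, *Nkx2-1*, *Foxa1*, *Foxa2*, *Sox2* and *Tbx4*. The first 2 are shown because these epithelial genes lie on the same chromosome and strand and were among the lower of the 10 in hyperoxia females. The third is the promoter of *Fendrr*, a long noncoding RNA gene transcribed away from *Foxf1*, with its start 1276 bp from the *Foxf1* start. Capitals mark the forkhead motif TGTTTAC on either strand, the motif of the FOX family.
Nkx2-1, chr12:56536859-56537158, minus strand: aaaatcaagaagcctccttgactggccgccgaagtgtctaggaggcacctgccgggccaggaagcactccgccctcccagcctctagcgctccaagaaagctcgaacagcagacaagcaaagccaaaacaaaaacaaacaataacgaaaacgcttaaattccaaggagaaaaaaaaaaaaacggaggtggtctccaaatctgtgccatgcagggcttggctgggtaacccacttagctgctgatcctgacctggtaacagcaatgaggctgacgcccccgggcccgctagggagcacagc
Foxa1, chr12:57546062-57546361, minus strand: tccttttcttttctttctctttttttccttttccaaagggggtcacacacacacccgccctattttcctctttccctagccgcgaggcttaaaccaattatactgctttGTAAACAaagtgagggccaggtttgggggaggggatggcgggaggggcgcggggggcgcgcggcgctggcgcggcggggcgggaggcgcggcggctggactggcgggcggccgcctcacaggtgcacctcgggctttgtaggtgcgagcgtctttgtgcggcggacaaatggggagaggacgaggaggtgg
Fendrr, chr8:121083061-121083360, minus strand: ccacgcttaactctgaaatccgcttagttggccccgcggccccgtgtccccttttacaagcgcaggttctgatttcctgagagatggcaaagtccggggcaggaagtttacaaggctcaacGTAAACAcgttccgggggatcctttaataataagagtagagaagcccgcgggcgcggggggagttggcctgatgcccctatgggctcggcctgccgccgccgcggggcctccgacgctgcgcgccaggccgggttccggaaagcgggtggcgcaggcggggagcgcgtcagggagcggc
The *Foxa1* and *Fendrr* promoters each held 1 forkhead motif, which was present in 3.65% of 32851 promoters of this length. The *Nkx2-1*, *Sox2*, *Tbx4* and 3 *Foxa2* promoters held none. The T-box motif GGTGTGA (3.98% of all promoters), the NKX2 motif CAAGTG (13.6%) and the SOX motif AACAATG (3.78%) were in none of the promoters found for the 5 genes or *Fendrr*. The GATA motif AGATAA (11.2% of all promoters) was in 1 of the 3 *Foxa2* promoters. *Fendrr* had 31 CpG dinucleotides, *Sox2* 27, *Foxa1* 26, the 3 *Foxa2* promoters 12, 23 and 13, *Nkx2-1* 12 and *Tbx4* 8, against a median of 7 over all promoters.

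Per kilobase of exon, *Foxf1* and *Tbx2* were the most abundant of the 10 genes, at 56.2 ± 18.7 and 53.7 ± 13.9 CPM per kb (SD over 12 lungs). They did not differ beyond their spread, *Foxf1* being above *Tbx2* in 6 of 12 lungs. *Nkx2-1* (33.3 ± 8.63 CPM per kb), *Tbx4* (28.2 ± 6.05) and *Tbx5* (19.1 ± 3.63) came next. The forkhead genes *Foxa1* (12.3 ± 3.28 CPM per kb) and *Foxa2* (9.10 ± 1.70) stood above *Gata6* (7.96 ± 1.57). For each of these neighbours from *Tbx2* to *Gata6*, the first was above the second in 12 of 12 lungs, although their ranges over lungs overlapped. *Sox9* (3.26 ± 0.36) and *Sox2* (2.90 ± 0.53) were lowest, and *Sox9* was above *Sox2* in 9 of 12 lungs. The 2 SOX genes were also near the read density on genes best known from the sensory tissue of the nose. A background estimate from 2003 olfactory and vomeronasal receptor genes accounted for 43.7% of *Sox2* counts and 37.8% of *Sox9* counts on average, against 2.57% for *Foxf1* and 4.07% for *Nkx2-1*.

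**Figure D1:**
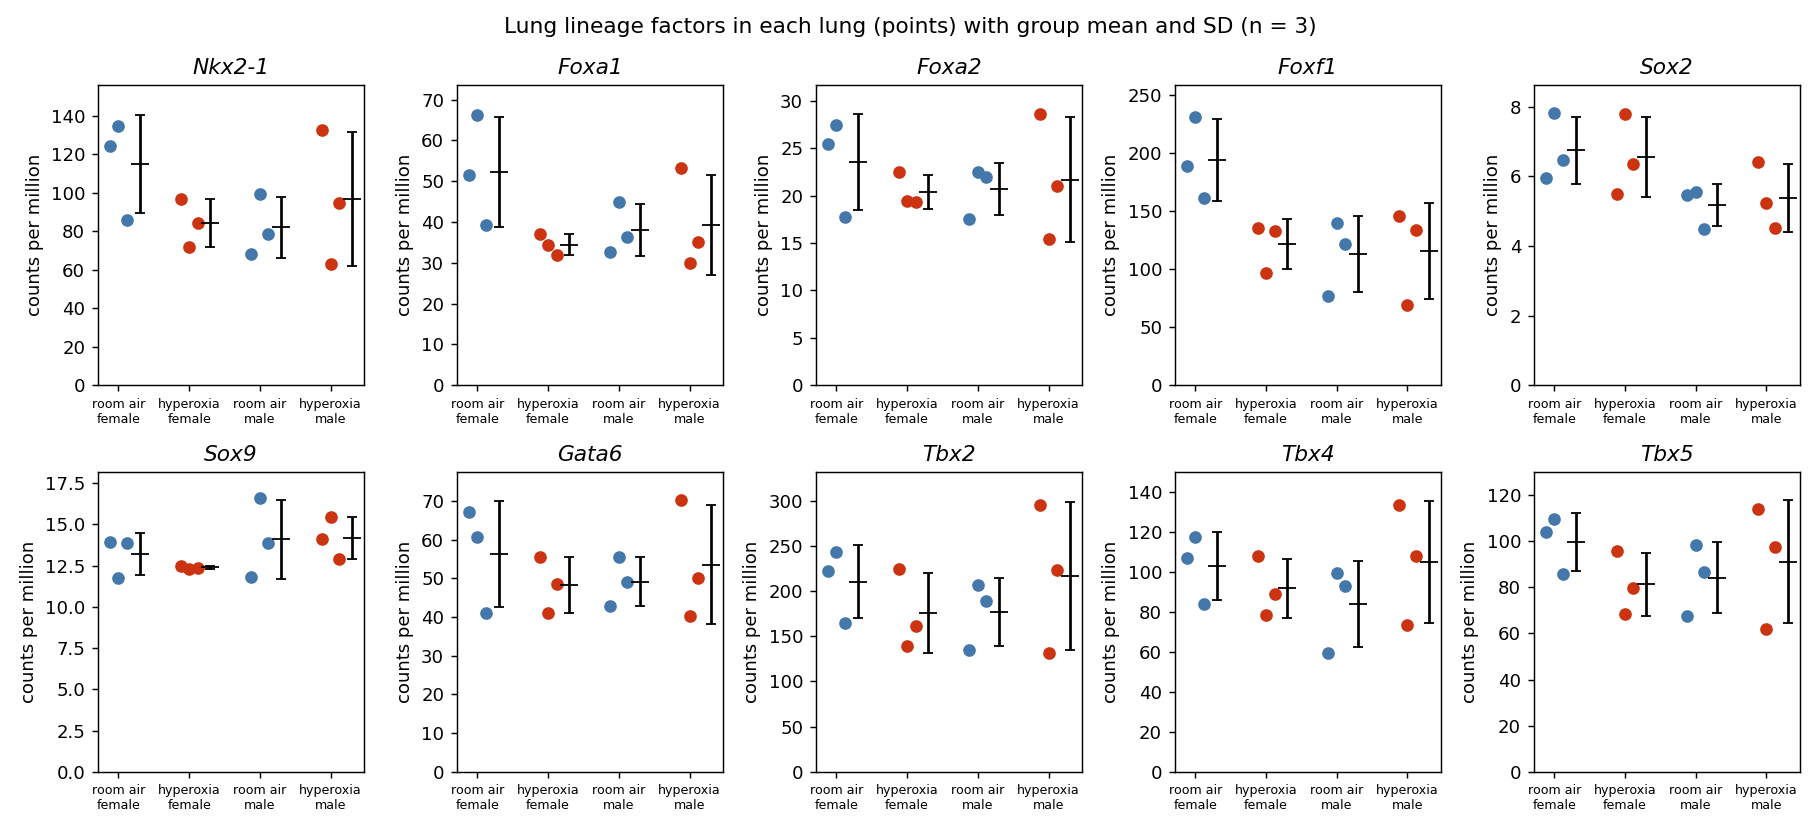
CPM (linear axis from 0) of each gene in every lung, by exposure and sex, with the group mean and SD to the right of the 3 points. In females *Foxa1* and *Foxf1* are the genes whose exposure groups do not overlap, and the hyperoxia males run from 62.8 to 133 CPM for *Nkx2-1*.

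The first comparison asked whether neonatal hyperoxia left a mark on these genes in the recovered female lung. All 10 genes had a negative log2 fold change in females, from -0.68 for *Foxf1* to -0.05 for *Sox2* with a median of -0.24, and 0 of 10 were called. Over all genes tested the median was 0.11, 39.0% were lower and 0.00218% were called. With the share of counts on olfactory and vomeronasal receptor genes as a covariate, 3 of 10 were lower and the median was 0.08, as described further on. In the main model *Foxa1* and *Foxf1* had an unadjusted p under 0.05, 2 of 10 genes against 12.6% of all genes in either direction and 5.28% in the lower direction. Without room air female 6 this count was 4 of 10 (11558 of 46780 genes) and the median -0.40. Without room air female 5 the count was 0 of 10 (2294 of 46953 genes) and the median -0.17. RUVr, which the study's methods apply, normalizes by a factor estimated from the residuals left after the 4 groups are fitted. It therefore removes spread within groups. With it the *Foxa1* SE was 0.09 against 0.20 in the main model, at a log2 fold change of -0.57 (adjusted p = 1.1e-06, edgeR). In that fit 4 of 10 genes had an adjusted p under 0.05 in females, against 16.7% of all genes. They were *Nkx2-1*, *Foxa1*, *Tbx2* and *Tbx5*, with folds under 1.5. An unadjusted p under 0.05 was found for 6 of 10 (13502 of 45828 genes). *Foxa1* and *Foxf1* also had exposure groups that did not overlap, which 6.42% of all genes showed in the lower direction.

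Among the epithelial factors, *Nkx2-1*, the homeobox gene that defines lung identity, was at 124, 134 and 86.0 CPM in room air females 2, 5 and 6. In hyperoxia females 2, 4 and 5 it was at 96.9, 72.0 and 84.5 CPM. Room air females 2 and 5 were above every hyperoxia female, while room air female 6 lay among them. The log2 fold change was -0.45 (SE 0.24, adjusted p = 0.418, edgeR). *Foxa1*, a pioneer factor that opens chromatin for other factors, was at 51.5, 66.2 and 39.2 CPM in room air females and at 37.1, 34.4 and 31.8 CPM in hyperoxia females. The lowest room air lung was just above the highest hyperoxia lung. Its log2 fold change of -0.60 (SE 0.20, 95% interval -1.02 to -0.19) had an unadjusted p of 0.0057 and an adjusted p of 0.339 (edgeR). *Foxa2*, its close relative, was at 25.5, 27.4 and 17.8 CPM in room air females and at 22.5, 19.4 and 19.3 CPM in hyperoxia females. Room air female 6 was the lowest of these 6 lungs, and the groups overlapped (log2 fold change -0.21, SE 0.18, adjusted p = 0.577, edgeR). *Gata6*, a zinc finger factor of the alveolar epithelium, was at 67.2, 60.7 and 41.0 CPM in room air females and at 55.5, 40.9 and 48.6 CPM in hyperoxia females. The groups overlapped here too (log2 fold change -0.22, SE 0.21, adjusted p = 0.598, edgeR).

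The SOX genes differed least. *Sox2* was at 5.96, 7.82 and 6.48 CPM in room air females and at 5.51, 7.79 and 6.36 CPM in hyperoxia females, from 48 to 123 counts per library over the 12 lungs. *Sox9* was at 13.9, 11.8 and 13.9 CPM in room air females and at 12.5, 12.3 and 12.4 CPM in hyperoxia females. Their log2 fold changes of -0.05 (SE 0.21) and -0.09 (SE 0.16) had 95% intervals of -0.49 to 0.39 and -0.41 to 0.23, so that differences within these intervals are not excluded.

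Among the mesenchymal factors, *Foxf1*, a forkhead gene required for the lung capillary bed, was at 188, 231 and 161 CPM in room air females 2, 5 and 6. In hyperoxia females 2, 4 and 5 it was at 135, 96.4 and 132 CPM. Every room air female was above every hyperoxia female. The log2 fold change was -0.68 (SE 0.27, 95% interval -1.22 to -0.13) with an unadjusted p of 0.017 and an adjusted p of 0.357 (edgeR). The T-box genes had smaller differences, with groups that overlapped. *Tbx2* was at 222, 243 and 165 CPM in room air females and at 225, 139 and 162 CPM in hyperoxia females. *Tbx4* was at 107, 117 and 84.2 CPM in room air females and at 108, 78.8 and 88.9 CPM in hyperoxia females. *Tbx5*, which is also a heart gene, was at 104, 110 and 85.7 CPM in room air females and at 95.8, 68.6 and 79.7 CPM in hyperoxia females. The 3 log2 fold changes were -0.26 (SE 0.28), -0.16 (SE 0.23) and -0.29 (SE 0.22). In each gene hyperoxia female 2 was among the room air lungs. The cardiac muscle marker list had a summed level of 174 to 198 CPM in room air females and 93.8 to 128 CPM in hyperoxia females, and its part in the *Tbx5* value was not tested.

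In males none of the 10 genes separated by exposure. All 10 log2 fold changes were positive, from 0.0035 for *Sox9* to 0.32 for *Tbx4*, with a median of 0.098 against -0.011 over all genes. Over all genes tested 52.0% were lower in males. 0 of 10 were called and 0 of 10 had an unadjusted p under 0.05, against 0% and 2.7% of all genes, and the adjusted p was 1.00 for every gene (edgeR). The groups overlapped for each of the 10, while 6.62% of all genes had groups that did not. *Foxf1* was at 76.2, 140 and 122 CPM in room air males 1, 4 and 5 and at 145, 68.5 and 133 CPM in hyperoxia males 1, 2 and 3. *Foxa1* was at 32.6, 45.0 and 36.4 CPM in room air males and at 53.2, 29.8 and 35.0 CPM in hyperoxia males. *Tbx4* was at 59.5, 99.5 and 93.1 CPM in room air males and at 134, 73.5 and 108 CPM in hyperoxia males. Hyperoxia male 1 was high and hyperoxia male 2 low within their group for these 3 genes, while the lowest male lung for *Tbx4* was room air male 1. Leaving out hyperoxia male 1 made 7 of 10 log2 fold changes negative, and leaving out room air male 1 made 5 of 10 negative. Leaving out hyperoxia male 2 raised the median to 0.31, with 3 of 10 genes at an unadjusted p under 0.05 (3186 of 46757 genes), and leaving out room air male 4 raised it to 0.24. One room air male lung had a summed skeletal muscle marker level of 1794 CPM, against 76.9 to 117 CPM in the female and hyperoxia male lungs, and its part in these values was not tested.

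**Figure D2:**
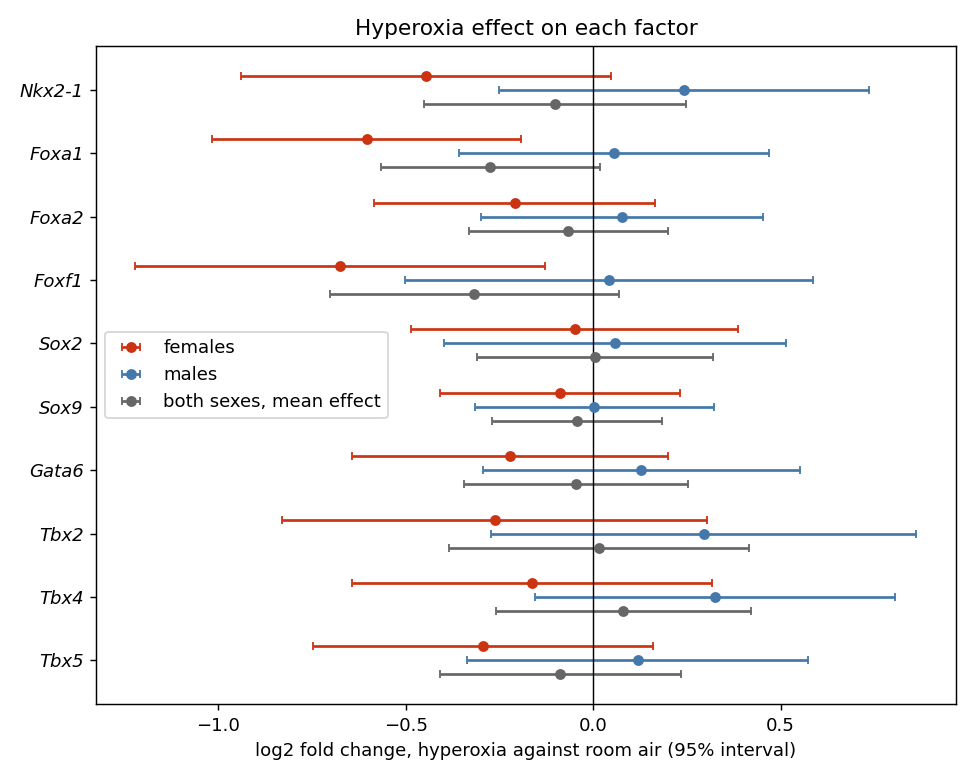
Log2 fold change of hyperoxia against room air for each gene in females, in males and as the mean effect of both sexes, with 95% intervals from the edgeR model. Intervals that exclude 0 are those of *Foxa1* and *Foxf1* in females, before any adjustment over genes.

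With both sexes pooled, 7 of 10 genes were lower and 3 higher, while 44.0% of all genes were lower. None was called (0.0415% of all genes were), and the smallest adjusted p was 0.927 (edgeR). None had an unadjusted p under 0.05, against 5.2% of all genes. This count was 2 of 10 with RUVr (7506 of 45828 genes) and with the receptor share covariate (3381 of 45828). It was also 2 of 10 without hyperoxia male 1 (5292 of 46927) and without room air male 1 (2874 of 46682). The pooled directions rested on single lungs. Without hyperoxia male 1 all 10 genes were lower, without hyperoxia male 2 it was 3 of 10, and a receptor share covariate also left 3 of 10 (median 0.063, against -0.056 in the main model). *Foxf1* had a pooled log2 fold change of -0.32 (SE 0.19) and *Foxa1* of -0.27 (SE 0.14). The difference between the female and the male effect, tested as an interaction, was negative for all 10 genes and for 41.4% of all genes. Of the 10, 0 were called (0% of all genes). *Foxa1* had an unadjusted interaction p of 0.028, 1 of 10 genes against 8.46% of all genes, with a difference in log2 fold change of -0.66 (SE 0.28, adjusted p = 0.578, edgeR). Without hyperoxia male 2 this count was 7 of 10 (10160 of 46757 genes), without room air female 6 or room air male 4 it was 3, and without hyperoxia male 1, room air female 5 or room air male 1 it was 0. With the receptor share as a covariate 4 of 10 interaction values were negative, with a median of 0.061 against -0.45 in the main model. With RUVr, which removes spread within groups, the interaction was called for *Nkx2-1* (-0.62) and *Foxa1* (-0.60). These were 2 of 10 genes, against 4.61% of all genes in that fit. In the main model the effect was not shown to differ between the sexes. Female against male lungs over both exposures called 0 of 10 (1.22% of all genes), and 2 of 10 had an unadjusted p under 0.05 (6.88% of all genes). These were *Foxf1* (log2 difference 0.42, SE 0.19, adjusted p = 0.622) and *Sox2* (0.33, SE 0.15, adjusted p = 0.676), both higher in females. The count was 0 of 10 without room air female 5 (2735 of 46953 genes) or without hyperoxia male 2 (2676 of 46757). It was 3 of 10 without hyperoxia male 1 (5383 of 46927). The *Sox2* difference was 0.66 (SE 0.25) with background subtracted.

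The 12 lungs differed in the level of these genes as a set in a way that exposure did not divide. Room air female 2 and hyperoxia male 1 were above the 12-lung median for 10 of 10 genes, and room air male 1 for 0 of 10. Hyperoxia male 2 was the lowest lung for 7 genes and hyperoxia male 1 the highest for 5. The share of counts on these receptor genes moved with this. It was 0.453% in room air female 5, 0.569% in hyperoxia male 1 and 0.572% in room air female 2, the 3 lungs with the highest median level of the 8 genes other than *Sox2* and *Sox9*. It was 0.996% in room air male 1 and 1.04% in hyperoxia male 2, the 2 lungs with the lowest. Hyperoxia females had a share of 0.845 ± 0.10% and room air females of 0.615 ± 0.187% (SD, n = 3, exact permutation p = 0.2, two-sided, where 0.1 is the smallest possible). In males the shares were 0.803 ± 0.237% and 0.852 ± 0.144% (exact permutation p = 0.8, two-sided). With the share as a covariate, the female log2 fold changes became -0.12 (SE 0.11) for *Foxa1*, -0.20 (SE 0.25) for *Foxf1* and 0.07 (SE 0.11) for *Nkx2-1*, and 3 of 10 remained negative. *Tbx4* (0.27, SE 0.11, adjusted p = 0.818) and *Tbx2* (0.26, SE 0.13, adjusted p = 0.897, edgeR) had an unadjusted p under 0.05 in that fit and were higher under hyperoxia. The receptor set included pseudogenes. Counting protein coding receptor genes alone, 1492 genes, was tried after these values were seen, and gave shares of 0.767 ± 0.090% and 0.556 ± 0.168% in females (exact permutation p = 0.2, two-sided) and the same 3 of 10.

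**Figure D3:**
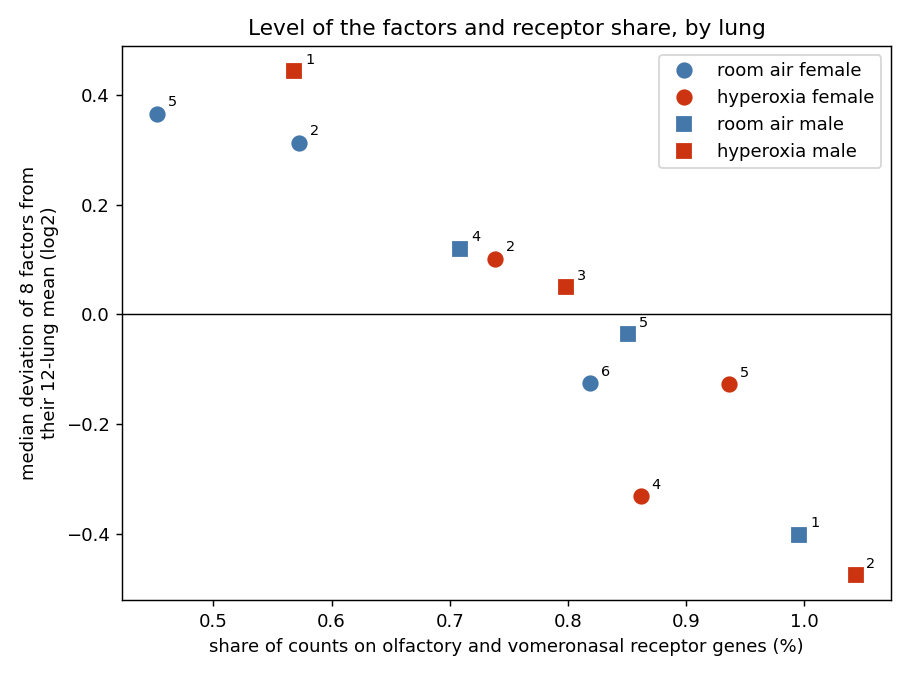
Share of counts on olfactory and vomeronasal receptor genes (percent) against the median log2 deviation of 8 genes (all but *Sox2* and *Sox9*) from their 12-lung mean, 1 point per lung labelled with its animal number. Room air female 5 (0.453%) and hyperoxia male 1 (0.569%) sit at the top left, and hyperoxia male 2 (1.04%) at the bottom right.

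**Figure D4:**
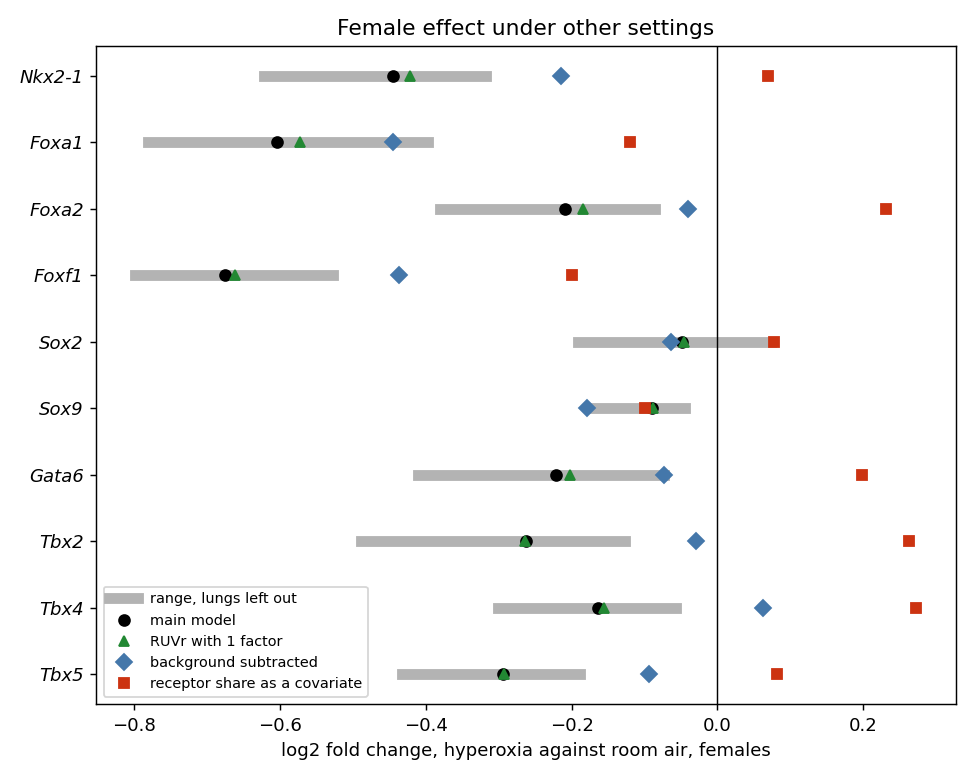
Log2 fold change of each gene in females in the main model, with RUVr (a factor of unwanted variation estimated from residuals), with estimated background subtracted and with a receptor share covariate, and the range over fits with lungs left out. With the covariate *Foxa1* moves from -0.60 to -0.12 and *Foxf1* from -0.68 to -0.20.

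Ratios between genes within a lung do not depend on its depth. These ratios were chosen after the values were seen and carry no test. In females the log2 level of *Foxf1* relative to the mean of *Tbx2*, *Tbx4* and *Tbx5* was 0.48, 0.66 and 0.60 in room air lungs and 0.03, 0.08 and 0.34 in hyperoxia lungs. The mean was 0.58 ± 0.09 in room air and 0.15 ± 0.17 in hyperoxia females (SD, n = 3), and these groups did not overlap. In males it was 0.04 ± 0.12 in room air and -0.16 ± 0.15 in hyperoxia, and the groups overlapped. *Foxf1* was lower relative to 7 of its 9 partners in females, all but *Nkx2-1* and *Foxa1*, and relative to *Tbx4* alone in males. These ratios share 1 gene whose own female groups did not overlap, and *Foxf1* was lower in this way relative to 56.7% of all genes tested in females and 0.279% in males, so the female count is not particular to the 10 genes. *Foxa1* relative to *Foxa2* was 1.14 ± 0.13 in room air and 0.75 ± 0.06 in hyperoxia females on the log2 scale, and 0.87 ± 0.14 and 0.86 ± 0.11 in males. *Tbx4* was higher relative to *Tbx5* under hyperoxia in both sexes, by a small amount, at 0.18 ± 0.02 against 0.04 ± 0.06 in females and 0.21 ± 0.05 against -0.02 ± 0.15 in males.

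**Figure D5:**
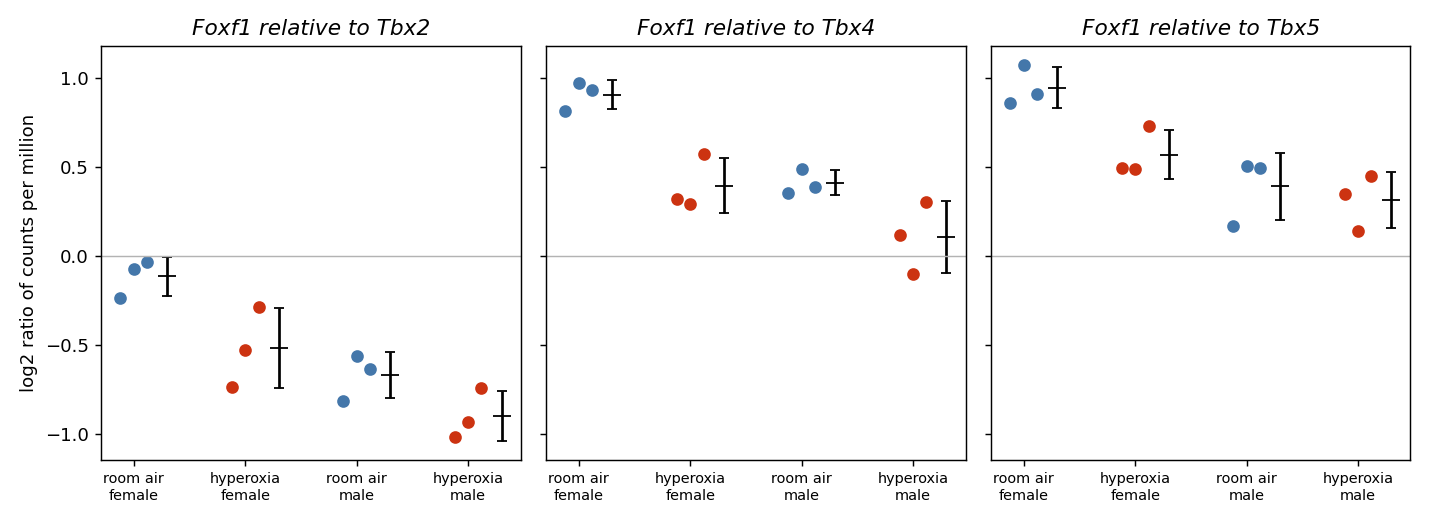
Log2 ratio of *Foxf1* to *Tbx2*, *Tbx4* and *Tbx5* CPM in every lung, with group mean and SD to the right. In females all hyperoxia lungs are below all room air lungs in each panel, and in males this holds for *Tbx4* alone.

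Noncoding genes next to the 10 genes were followed for the same lungs. *Fendrr*, whose promoter is shown above, was at 206, 223 and 150 CPM in room air females and at 176, 109 and 125 CPM in hyperoxia females. Its groups overlapped, with a log2 fold change of -0.50 in females (SE 0.28, adjusted p = 0.423, edgeR) and 0.19 in males (SE 0.28). *BC006965*, which starts 248 bp from *Sox9* on the other strand, was at 12.3, 11.8 and 14.7 CPM in room air females and at 18.5, 15.5 and 16.9 CPM in hyperoxia females. It was higher in every hyperoxia female (log2 fold change 0.40, SE 0.16, adjusted p = 0.357, edgeR), as were 10.8% of all genes, and had -0.01 (SE 0.15) in males. The receptor background estimate came to 35.3% to 51.3% of its counts in female lungs, and its part in this value was not tested. *Gm26973*, an antisense gene across *Nkx2-1* that shares no exon with it, had log2 fold changes of -0.23 (SE 0.19) in females and 0.34 (SE 0.20) in males. Its male groups did not overlap, as for 6.62% of all genes in either direction. *Sox2ot*, within which *Sox2* lies, had 0.19 (SE 0.16) in females. *Gata6os* shares 93 bp of exon with *Gata6* on the other strand, and since the strand setting of the counting is not given in the sources used here, reads there cannot be told apart. The same holds for 98 bp of *Foxf1* exon shared with the miRNA gene *Gm27530*, which starts 320 bp from *Foxf1* on the other strand and had 0 counts in all lungs. *Gata6os* had a log2 fold change of 0.12 (SE 0.16) in females. The genes *2610027K06Rik* beside *Tbx2* and *Gm43050* beside *Tbx5* had -0.16 (SE 0.15) and 0.08 (SE 0.17). For *2610027K06Rik* every hyperoxia female was below every room air female, as for 6.42% of all genes.

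Genes related to the 10 by family or function were taken from lists chosen with earlier results of these data known. Of 15 family relatives, 9 were lower in females, with a median log2 fold change of -0.04, and none had an unadjusted p under 0.05. *Tbx3*, the nearest relative of *Tbx2*, had -0.33 (SE 0.24), *Foxf2* -0.21 (SE 0.23), *Gata4* 0.13 (SE 0.16) and *Tbx15* -0.04 (SE 0.25). Of 40 other lung transcription factors, 31 were lower in females with a median of -0.19, while 39.0% of all genes were lower. An unadjusted p under 0.05 was found for 5 lower genes, against 5.28% of all genes in the lower direction, and for 1 higher gene. In either direction 12.6% of all genes had such a p. *Irx1*, an Iroquois homeobox gene, had -0.75 (SE 0.22, adjusted p = 0.307, edgeR), and *Irx2* beside it in the family had -0.60 (SE 0.19, adjusted p = 0.339, edgeR). *Klf5* had -0.29 (SE 0.18), *Grhl2* -0.18 (SE 0.14), *Hopx* -0.49 (SE 0.22) and *Sox18* -0.06 (SE 0.25). None of these was called in either sex, and in males 9 of the 40 were lower.

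Epithelial and *Foxf1* target genes, and signalling genes of the lung mesenchyme, were lower in females in every case, against 39.0% of all genes, and 0 were called. All 18 epithelial target genes had a negative log2 fold change in females (median -0.55), against 7 of 18 in males (median 0.10). An unadjusted p under 0.05 was found for 3 of these 18 genes in females, against 12.6% of all genes in either direction and 5.28% in the lower direction. *Aqp5*, a water channel of alveolar type 1 cells, had -0.72 (SE 0.24, adjusted p = 0.339, edgeR) and *Pdpn*, a type 1 cell surface protein, -0.44 (SE 0.20). *Scgb1a1*, the club cell secretory protein, had -0.66 (SE 0.44) and *Sftpc*, surfactant protein C of type 2 cells, -0.57 (SE 0.41). All 10 *Foxf1* target genes were lower in females (median -0.42, 1 with an unadjusted p under 0.05, 0 called), against 3 of 10 in males. *S1pr1*, a sphingosine receptor of endothelium, had -0.74 (SE 0.26, adjusted p = 0.352, edgeR), *Kdr*, a VEGF receptor, -0.56 (SE 0.28), *Pecam1* -0.45 (SE 0.29) and *Cdh5* -0.43 (SE 0.31). All 12 mesenchymal signal genes were lower in females as well (median -0.27, 1 with an unadjusted p under 0.05, 0 called), against 2 of 12 in males (median 0.12, 1 higher with an unadjusted p under 0.05). *Spry2*, an inhibitor of FGF signalling, had -0.47 (SE 0.16, adjusted p = 0.351, edgeR), *Hhip* -0.37 (SE 0.22), *Bmp4* -0.29 (SE 0.19) and *Pdgfra* -0.13 (SE 0.28). *Pdgfra*, a growth factor receptor of fibroblasts, was that gene in males, at 0.59 (SE 0.28, adjusted p = 1.00, edgeR). Marker lists of the main lung cell types were also lower in these females, but they share genes with the lists above. All alveolar type 2 markers and most type 1, club cell and endothelial markers are among the target genes already counted. All 6 alveolar type 2, 6 alveolar type 1, 6 endothelial, 7 fibroblast and 5 club cell markers were lower, with medians of -0.54, -0.46, -0.50, -0.43 and -0.63. Lists of smooth muscle (4 of 5 lower, median -0.20), airway ciliated cells (7 of 8, -0.26) and cardiac muscle (6 of 7, -0.39) were mostly lower as well. Other lists had a median above 0, among them alveolar macrophages (0.07, 2 of 6 lower), neuroendocrine cells (0.23, 2 of 6), cartilage (0.13, 2 of 7), Schwann cells (0.20, 1 of 5), squamous epithelium (0.17, 1 of 7) and skeletal muscle (0.19, 2 of 8). The part of cell composition in the values of the 10 genes was not tested.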

How the data were processed

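The authors trimmed reads with Trim Galore, aligned them to mm10 with STAR and counted reads per gene with featureCounts, and deposited counts for 12 lungs. Versions and the strand setting are not given in the sources used here, and the labels and the methods name different library kits. The methods also name a ComBat-seq batch step, and whether the deposited whole-number counts precede it is not given in the sources used here. All columns were matched to samples (0 without one). Gene lengths and positions came from GENCODE M21, in which 55227 of 55487 genes matched. Counts were fitted over 4 groups with edgeR 4.0.16 (filterByExpr, upper quartile normalization, robust quasi-likelihood F test, Benjamini-Hochberg adjustment) in R 4.3.3. The study's methods also apply RUVr with a number of factors not given in the sources used here, so RUVr with 1 factor was an alternative. Log2 CPM used a prior count of 2. The script was tested on simulated data. Replicates differed beyond sampling noise, so none was merged.

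The 10 genes and all lists were chosen with earlier results of these data known. Named genes were the 10, tested genes that overlap one of them or start within 5000 bp of it on the other strand, and from each list the 2 smallest p-values in the pooled comparison (4 for other transcription factors) and the 2 most abundant. *Gm27530*, not tested, and *Trp63* were named outside this rule after their values were seen. The receptor share was computed over 2003 receptor genes, pseudogenes included. During the work this set was replaced by 1492 protein coding genes because that moved the shares nearer to values of an earlier analysis of the same files. As no source specified it, the first set was restored and the second is given as an added alternative.

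P-values measure the spread between 3 lungs a group. In the edgeR fits this spread was estimated jointly over the 4 groups, so a p-value in females also depends on the male lungs.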

Additional observations from a re-analysis of the deposited data

Results flagged for a closer look

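*Gm26973*, the antisense gene across *Nkx2-1*, had every hyperoxia female below the room air female mean and every hyperoxia male above the room air male mean. It was at 7.72, 7.25 and 6.4 CPM in room air females against 6.39, 6.61 and 5.33 CPM in hyperoxia females, and at 5.31, 6.09 and 5.78 CPM in room air males against 7.46, 6.53 and 7.68 CPM in hyperoxia males. The interaction was -0.57 on the log2 scale (SE 0.28, adjusted p = 0.578, edgeR), so the difference between the sexes did not pass the test. With 60 to 114 counts per library, the gene is thinly covered. None of the 10 transcription factor genes had this pattern.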

How the results depend on the processing

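In females, males, both sexes pooled and females against males, 0 of the 10 genes were called under TMM, DESeq2, no filter, a filter of 10 counts, RUVr, background subtracted, the receptor share and each lung left out. The same held with only the lungs compared (females and males) and with the replicate block (females and both sexes pooled). The exception was the interaction with RUVr, where 2 were called, *Nkx2-1* and *Foxa1*, among 2112 genes called in all. In females RUVr called 1907 genes against 1 in the main model, DESeq2 74, only the 6 libraries 80, and the fit without room air female 6 206. A sign change was counted as reversed where both values exceeded their SE. With the receptor share as a covariate *Foxa2* reversed to 0.23 and *Gata6* to 0.20 in females, and to 0.29 and 0.19 in the interaction. *Tbx2* and *Tbx4*, whose main values were within their SE, also turned positive in females. With protein coding receptor genes alone, an alternative added after seeing the data, these were 0.24, 0.20, 0.29 and 0.20. With background subtracted *Foxa1* was -0.45 and *Foxf1* -0.44 in females, while *Nkx2-1* was -0.21, *Tbx2* -0.03 and *Tbx4* 0.06. In that fit 9 of 10 genes were lower in females, with a median of -0.08 against -0.24 in the main model. The interaction median was -0.22, against -0.45 in the main model. Over lungs left out, *Foxa1* in females ran from -0.78 to -0.40 and *Foxf1* from -0.80 to -0.53, and without room air female 5 neither had an unadjusted p under 0.05. Without the 2 lungs of lowest receptor share, also added after seeing the data, they were -0.40 and -0.53. Room air female 5 was the only female of these 2, so in females this repeats its omission. Without the 2 of highest share they were -0.60 and -0.67. Both of those lungs were male, so that fit kept every female lung and cannot test the share in females. With the replicate block in females *Foxa1* was -0.77, *Foxf1* -0.64 and 0 were called. The numbers do not pair the lungs (deviations correlated at 0.079 and -0.20), and the block was not run for males or for females against males. The cause of these changes was not tested. Background near their level limits *Sox2* and *Sox9*.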

Other observations

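*Trp63*, a basal cell factor among the other lung transcription factors, was singled out after its values were seen. It was the factor of that list with an unadjusted p under 0.05 that was higher in hyperoxia females, at a log2 fold change of 0.47 (SE 0.18, adjusted p = 0.357, edgeR) against -0.27 in males. The squamous epithelium marker list, which holds *Trp63*, had a summed level of 63.4 to 1254 CPM in room air males and 56.9 to 71.8 CPM in hyperoxia males (7 of 7 markers lower, median -1.19), and its part in the male value was not tested. Thyroid and thymus marker lists, genes of tissues outside the lung, were also mostly higher in hyperoxia females, with medians of 0.29 and 0.36. The median over all genes in these females was 0.11, and squamous epithelium (0.17), neuroendocrine cells (0.23), Schwann cells (0.20), cartilage (0.13) and skeletal muscle (0.19) had positive medians as well.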
